A study of Homo sapiens with 5 samples.

Results

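The genes described here encode the HSP70 chaperones HSPA1A, HSPA1B, HSPA1L, HSPA2, HSPA6, HSPA8 and HSPA9 and the HSP110 chaperones HSPH1, HSPA4 and HSPA4L. The members are the probe sets whose platform annotation names 1 of these 10 genes, alone or with another of them, which gave 20 of 22215 probe sets, with at least 1 for each gene. They were measured in LNCaP, an established androgen-responsive line of human prostate cancer, grown in RPMI medium with fetal bovine serum. Cells received 1.25 µM celastrol, a triterpenoid from thunder god vine, or DMSO, its solvent, for 6 h before lysis in Trizol, and no genotype or other agent set the groups apart. There were 2 celastrol and 3 DMSO arrays, which the labels call biological replicates without naming the cultures, so the p-values measure the spread between these arrays, which may be technical. Precision is limited by how few arrays there are.

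HSP70 proteins bind exposed hydrophobic stretches of unfolded proteins in cycles driven by ATP. J-domain proteins bring clients and speed ATP hydrolysis, and nucleotide exchange factors, HSP110 proteins among them, release ADP and with it the client. Cells keep a constitutive cytosolic HSP70, HSPA8, and under proteotoxic stress the transcription factor HSF1 induces others, with HSPA1A, HSPA1B and HSPA6 as the textbook examples. Celastrol is known as a compound that can turn on this response.

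Levels are log2(intensity + 1) of a probe set, and a change is the celastrol mean minus the DMSO mean of those levels. They are compared only within a probe set, since probe sets differ in their binding. Total intensity ran from 4939397 to 5348496 an array. DMSO replicate 3 stood apart: across probe sets its Pearson correlation with the other arrays was 0.843 to 0.844, while those correlated at 0.994 to 0.998 with each other. Of 10 measured luminal prostate markers 9 were over 2-fold lower on it than the mean of the other 4 arrays, with a summed intensity of 231 against 16231 to 17711. Of 11 leukocyte markers with a probe set, 9 were higher there by the same margin, with a summed intensity of 18399 against 219 to 225. It is therefore left out of the comparison and its values are given apart. Of the 20 members, 2 were over 2-fold above the higher of the other DMSO arrays on it and 3 over 2-fold below the lower, as were 7.13% and 9.51% of all probe sets. On the remaining arrays, the summed luminal intensity was 16231 and 16631 with celastrol against 17247 and 17711 with DMSO, a difference whose part in the results was not tested. Single luminal markers moved both ways in this cell line. KLK3 was lower, at 10.22 and 10.07 with celastrol against 10.89 and 10.71 with DMSO. KRT18 was higher, at 11.52 and 11.46 against 11.21 and 11.23. The sum therefore does not measure a share of luminal cells. Fewer cells of a type and less RNA per cell cannot be told apart in such extracts.

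The probe sets of the inducible HSP70 pair HSPA1A and HSPA1B, apart from one of HSPA1A alone that stayed dim, and of the HSP110 gene HSPH1 rose with celastrol, while the constitutive HSPA8 and the HSP110 genes HSPA4 and HSPA4L stood higher by smaller amounts. The mitochondrial HSPA9 had the smallest changes among the genes that could be tested. By limma with Benjamini-Hochberg adjustment over 13329 probe sets, 5 of the 18 member probe sets tested were higher at an adjusted p under 0.05 and 0 were lower, against 0.503% higher and 0.405% lower of all tested probe sets. The other 2 of the 20 members were too dim to be tested. The 5 stand for the shared HSPA1A and HSPA1B probe set, HSPA1B, both HSPH1 probe sets and 1 of HSPA6. Both HSPA6 probe sets passed the filter on dim probe sets through their celastrol values, since their DMSO means alone were under its limit of 4.54, so their being called or not is tied to being high with celastrol. Of the 16 members whose DMSO mean alone was above that limit, 4 were called. The share over all probe sets chosen in that way was not computed.

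All 20 member probe sets had a change above 0, as had 48.3% of all 22215 probe sets. Their median change was 0.57 against 0 for all probe sets. Both celastrol arrays lay above both DMSO arrays for 16 members, against 14.5% of all probe sets, and 4 members were at least 2-fold higher, against 0.27%. Probe sets of 1 gene share their transcripts and are no replicates of each other. The calls rest on few arrays: with no dim filter 0 members were called, where 0.0045% of all probe sets were called higher, although the change of each member stays as given. Leaving out celastrol replicate 1 or 2 or DMSO replicate 1 or 2 also left 0 called members, and then 0% of tested probe sets were called. With quantile normalization, median centring or cyclic loess, 11, 11 and 12 members were called, all higher, where 1.64%, 1.27% and 1.38% of tested probe sets were.

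**Figure D1:**
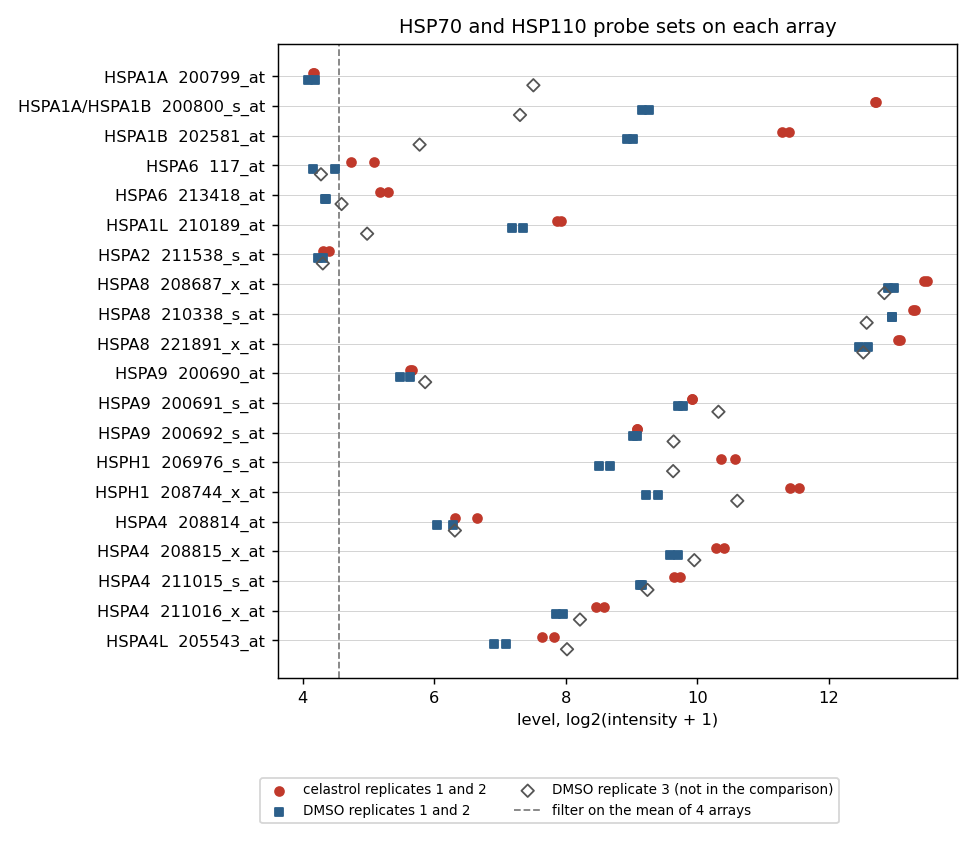
The horizontal axis is the level, log2(intensity + 1), of each of the 20 probe sets in a row of its own, with filled circles for the 2 celastrol arrays, filled squares for DMSO replicates 1 and 2 and an open diamond for DMSO replicate 3. The widest gap between circles and squares is that of the probe set shared by HSPA1A and HSPA1B, at 12.7 against 9.16 and 9.26.

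HSPA1A and HSPA1B encode near-identical stress-inducible cytosolic HSP70 proteins from neighbouring genes. Their shared probe set, 200800_s_at, stood at 12.72 and 12.70 on the celastrol arrays, at 9.16 and 9.26 on DMSO replicates 1 and 2, and at 7.30 on DMSO replicate 3. The groups are far apart, with 3.44 between the lower celastrol and the higher DMSO array of the comparison. It rose by 3.50 (SE 0.0510, limma adjusted p = 0.0239), which is 11.3-fold, the second largest rise of all 13329 tested probe sets. The probe set of HSPA1B alone, 202581_at, stood at 11.39 and 11.29 with celastrol and at 8.93 and 9.02 with DMSO. Again the groups did not overlap, and it rose 5.15-fold, by 2.37 (SE 0.0598, limma adjusted p = 0.0315). On DMSO replicate 3 it was at 5.78, below every other array.

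The probe set annotated to HSPA1A alone, 200799_at, showed none of this. It stood at 4.16 and 4.18 with celastrol and at 4.08 and 4.19 with DMSO, within the range of dim probe sets that were not tested, and the groups overlapped. On DMSO replicate 3, however, it read 7.51, well above the dim range of the other 4 arrays. DMSO replicate 3 is thus the highest array in this probe set and the lowest in the shared one. Because the 2 genes are so alike, how much of the shared signal comes from either cannot be read from these probe sets.

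The stretch of DNA just before the transcription start is shown for 4 HSP70 genes, because HSF1 acts through heat shock elements there, built of alternating GAA and TTC blocks. The sequences are from RefSeq on GRCh38.p14, 130 bases up to the base before the start, at chr6:31815413-31815542 (plus strand) for HSPA1A, chr6:31827608-31827737 (plus strand) for HSPA1B, chr1:161524410-161524539 (plus strand) for HSPA6 and chr11:123062137-123062266 (minus strand) for HSPA8. Capitals mark matches to GAANNTTC or TTCNNGAA, each of which reads the same on both strands. Where a match of each shares 3 bases, the run holds 3 alternating blocks in 13 bases.
HSPA1A: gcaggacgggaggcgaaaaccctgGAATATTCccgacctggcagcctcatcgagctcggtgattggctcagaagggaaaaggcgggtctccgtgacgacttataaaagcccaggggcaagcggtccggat
HSPA1B: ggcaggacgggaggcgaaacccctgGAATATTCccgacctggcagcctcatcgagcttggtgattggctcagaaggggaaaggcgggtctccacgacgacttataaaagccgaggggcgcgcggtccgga
HSPA6: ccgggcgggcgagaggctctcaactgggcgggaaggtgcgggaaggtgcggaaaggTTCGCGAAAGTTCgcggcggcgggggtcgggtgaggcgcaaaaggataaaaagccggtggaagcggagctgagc
HSPA8: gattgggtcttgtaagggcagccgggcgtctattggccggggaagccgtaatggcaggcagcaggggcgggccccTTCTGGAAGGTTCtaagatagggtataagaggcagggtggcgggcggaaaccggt

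The 250 bases before the start of HSPA1A and HSPA1B are 93.6% identical when aligned, and both hold GAATATTC about 100 bases before it, at 106 to 99 bases in HSPA1A and 105 to 98 in HSPA1B. RefSeq gave 12 windows of 250 bases before to 50 after a start for the 10 genes, with 3 for HSPA4L. A match to either motif was found in 7 of them, in 7 different genes, against 13.5% of 35116 promoter windows. HSPA8 held 4 matches and HSPA6 held 3, while HSPA1A, HSPA1B, HSPA1L, HSPA4L and HSPA9 held 1 each. These are not all separate sites: HSPA1A and HSPA1L have theirs at the same bases, and that of HSPA9 spans the start. The run of 3 blocks was found in HSPA6, once, and in HSPA8, at 2 places that hold its 4 matches, against 0.49% of promoter windows. No match was found in the windows of HSPH1, HSPA4 and HSPA2, which says only that these letters are not in those windows. A match is a description of the letters and not a measured binding site.

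HSPA6 encodes a strictly stress-inducible HSP70 with little expression in unstressed cells. Its probe set 213418_at stood at 5.30 and 5.18 with celastrol, at 4.34 and 4.35 with DMSO and at 4.59 on DMSO replicate 3. The celastrol arrays were above the rest. The change was 0.90 (SE 0.0535, limma adjusted p = 0.0481), but the DMSO level was under the dim limit, so the probe set was tested only because of its celastrol values. On the log2(value + 16) scale the change was 0.58 and the call was lost (limma adjusted p = 0.0502). The second probe set, 117_at, stood at 5.08 and 4.74 with celastrol and at 4.49 and 4.15 with DMSO, with 4.28 on DMSO replicate 3, groups that did not overlap but lay close together, and its change of 0.59 (SE 0.194) did not pass, with an adjusted p of 0.273 in limma.

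HSPA1L, best known for its expression in the testis, lies head to head with HSPA1A, with 260 bases between their annotated starts. Its promoter window overlaps that of HSPA1A by 241 bases, and the match GAATATTC in both windows is at the same bases. The HSPA1L probe set, 210189_at, stood at 7.86 and 7.93 with celastrol and at 7.17 and 7.35 with DMSO, so the groups did not overlap. The change of 0.63 (SE 0.0808) had a limma adjusted p of 0.0928. It was called with quantile normalization (limma adjusted p = 0.0387) and cyclic loess (limma adjusted p = 0.0484). With median centring (limma adjusted p = 0.0538) or no dim filter (limma adjusted p = 0.149) it was not called. With DMSO replicate 3, where it stood at 4.98, included among the controls, the change was 1.40 but far less certain (SE 0.850, limma adjusted p = 0.863). HSPA2, another HSP70 gene known from the testis, was dim throughout. The level of its probe set was 4.30 and 4.40 with celastrol, 4.30 and 4.24 with DMSO and 4.30 on DMSO replicate 3, so the groups overlapped and no test was made.

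HSPA8 encodes the constitutive HSC70 of the cytosol, which serves folding, clathrin uncoating and chaperone-mediated autophagy. Its 3 probe sets lay near the top of the scale, where the highest value of any probe set on any array was 14.2, and whether their signal saturates was not tested. The probe set 208687_x_at stood at 13.49 and 13.44 with celastrol and at 12.90 and 12.99 with DMSO, and 221891_x_at at 13.08 and 13.06 against 12.46 and 12.59. In both, and in 210338_s_at at 13.32 and 13.28 against 12.96 and 12.97, the celastrol arrays were above the DMSO arrays. The changes were 0.52, 0.54 and 0.34, or 1.44-fold, 1.46-fold and 1.26-fold, with 95% intervals of 0.37 to 0.68, 0.36 to 0.72 and 0.25 to 0.43. None passed, with limma adjusted p of 0.0702, 0.0780 and 0.0631. After cyclic loess or median centring all 3 were called, with adjusted p between 0.0312 and 0.0490. With quantile normalization 210338_s_at was not called (limma adjusted p = 0.0507). With no dim filter none was called, with limma adjusted p of 0.111, 0.128 and 0.0953 for 208687_x_at, 221891_x_at and 210338_s_at. Probe sets whose names end in _x_at may bind related transcripts, and HSPA8 has many pseudogenes, so these values are uncertain as measures of HSPA8 alone. On DMSO replicate 3 the 3 probe sets read 12.85, 12.53 and 12.58, between or below the other DMSO arrays.

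HSPA9 encodes mortalin, the HSP70 of the mitochondrial matrix, which pulls in and folds imported proteins. Its probe set 200691_s_at read 9.92 on both celastrol arrays, an identical value, against 9.70 and 9.78 with DMSO. Those groups did not overlap, and the change of 0.18 (95% interval 0.053 to 0.30) had a limma adjusted p of 0.172. The other two probe sets had overlapping groups and changes of 0.031 (95% interval -0.079 to 0.14) for 200692_s_at and 0.088 (-0.12 to 0.30) for 200690_at. DMSO replicate 3 was above each of the other 4 arrays in all 3, at 10.32, 9.64 and 5.86 for 200691_s_at, 200692_s_at and 200690_at. With that array among the controls, their changes turned to -0.015, -0.17 and -0.013.

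**Figure D2:**
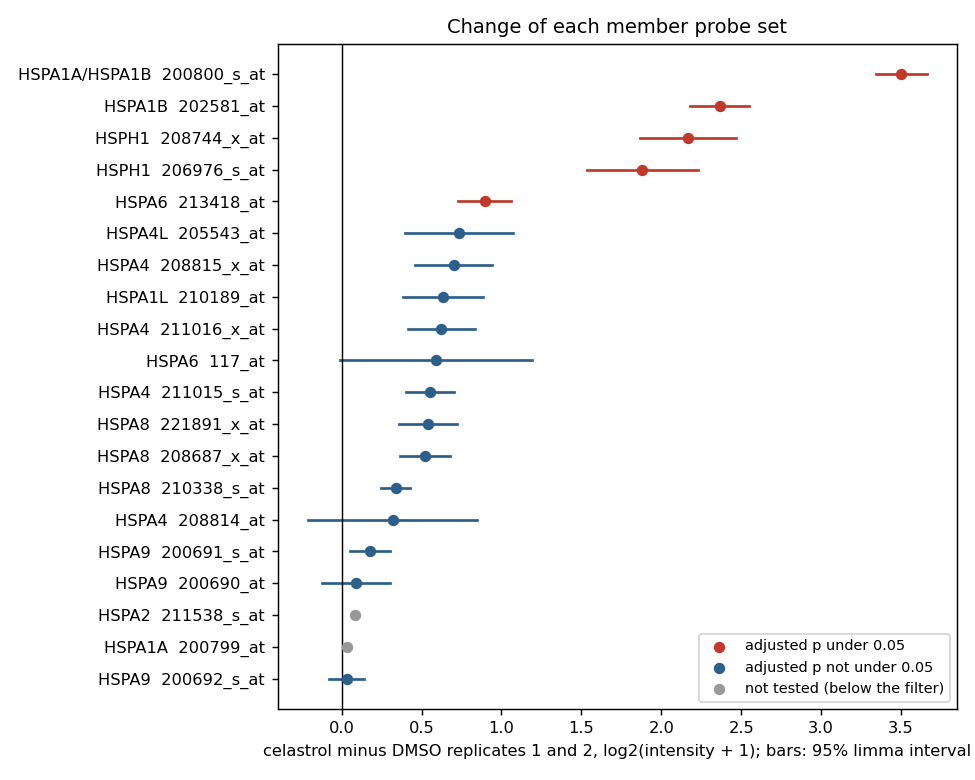
The horizontal axis is the change, celastrol minus DMSO replicates 1 and 2 in log2(intensity + 1), with a point for each of the 20 probe sets and bars for the 95% interval of limma, and grey points were not tested. The intervals of the shared HSPA1A and HSPA1B probe set, of HSPA1B and of HSPH1 lie above 1.5. Those of the HSPA8 and HSPA9 probe sets lie below 0.75, and the probe set of HSPA1A alone, not tested, has none.

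HSPH1 encodes HSP105, the stress-inducible HSP110 that exchanges nucleotide on HSP70 and takes part in disaggregation. Its probe set 208744_x_at stood at 11.41 and 11.55 with celastrol, at 9.22 and 9.41 with DMSO and at 10.61 on DMSO replicate 3. The second, 206976_s_at, stood at 10.57 and 10.36, at 8.50 and 8.67, and at 9.63 on that array. In both, the celastrol arrays were above all DMSO arrays, DMSO replicate 3 included. HSPH1 rose by 2.16 (SE 0.0967, limma adjusted p = 0.0387), or 4.48-fold, in the first and by 1.88 (SE 0.112, limma adjusted p = 0.0481), or 3.68-fold, in the second. The 95% intervals, 1.86 to 2.47 and 1.53 to 2.23, overlap each other.

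HSPA4, the constitutive HSP110 also called APG-2, had 4 probe sets, of which 3 had changes of 0.55 to 0.70. The probe set 208815_x_at stood at 10.41 and 10.28 with celastrol and at 9.71 and 9.58 with DMSO, a change of 0.70 (SE 0.0769, limma adjusted p = 0.0790). In 211016_x_at the levels were 8.58 and 8.47 against 7.85 and 7.95, a change of 0.62 (SE 0.0673, limma adjusted p = 0.0780), and in 211015_s_at they were 9.74 and 9.64 against 9.15 and 9.13, a change of 0.55 (SE 0.0476, limma adjusted p = 0.0624). In each the celastrol arrays were the higher ones. These 3 passed under quantile normalization, median centring and cyclic loess, with adjusted p from 0.0261 to 0.0456. The fourth, 208814_at, spread more, at 6.65 and 6.31 with celastrol and 6.04 and 6.28 with DMSO, and its change of 0.32 (SE 0.170) had a limma adjusted p of 0.474. DMSO replicate 3 stood at 9.95, 8.22, 9.24 and 6.31 in the order 208815_x_at, 211016_x_at, 211015_s_at and 208814_at, at most 0.31 from the mean of the other DMSO arrays in each.

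HSPA4L, the HSP110 also called APG-1, stood at 7.82 and 7.64 with celastrol and at 7.09 and 6.90 with DMSO, groups without overlap. The change of 0.73 (SE 0.109) was the largest of a member that did not pass, with a limma adjusted p of 0.109. DMSO replicate 3 read 8.02, above the celastrol arrays, and with it among the controls the change was 0.39 (SE 0.393).

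**Figure D3:**
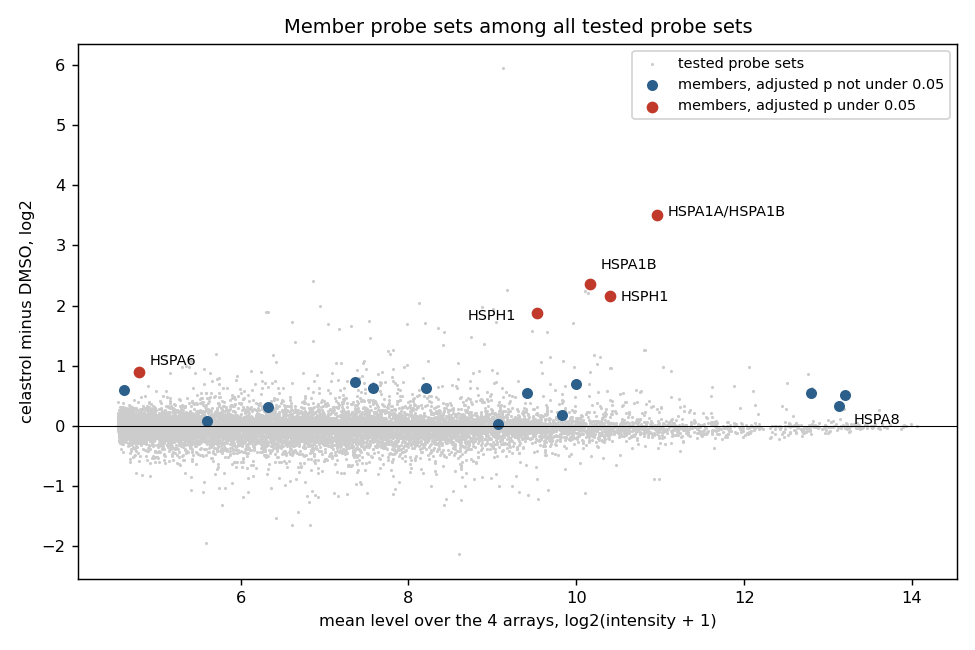
The horizontal axis is the mean level over the 4 arrays and the vertical axis the change with celastrol, both in log2, for the 13329 tested probe sets in grey and the 18 tested members in colour. The called members HSPA1A/HSPA1B, HSPA1B and HSPH1 lie at changes of 1.88 to 3.50, and the HSPA8 probe sets stand above the grey band at the bright end.

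The partners of HSP70 were taken from a list of 30 genes, of which 28 were measured and 27 tested. Of these, 7 rose and 0 fell, where 0.569% and 0.47% of 8091 tested genes did, each gene represented by its brightest probe set. The median change was 0.20 over the measured partners, against 0 for all probe sets, dim ones included, and -0.018 for the tested ones. No median over genes represented like the partners was computed. With no dim filter 1 partner was called, and 0 with any single one of the 4 arrays set aside. Of 10 J-domain genes 3 rose. DNAJB1, an HSF1-induced J-domain protein of the cytosol, went from 9.02 and 9.04 with DMSO to 11.25 and 11.23 and rose by 2.21 (SE 0.0282, limma adjusted p = 0.0239). DNAJB4, of the same class, rose by 1.56 (SE 0.0343, limma adjusted p = 0.0315). DNAJA1, a farnesylated J-domain protein, rose by 0.97 (SE 0.0263, limma adjusted p = 0.0315). A dimmer probe set of DNAJB1 was also called, with a change of 2.24 (limma adjusted p = 0.0315). Dimmer ones of DNAJB4, with 1.74 (limma adjusted p = 0.0843), and of DNAJA1, with 1.07 (limma adjusted p = 0.0521), were not called. DNAJC7, which binds both HSP70 and HSP90, stood 0.44 higher without passing (limma adjusted p = 0.0681).

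Of 7 tested nucleotide exchange genes 1 rose, BAG3, which links HSP70 to small heat shock proteins and selective autophagy, by 2.27 (SE 0.0747, limma adjusted p = 0.0322). Of 3 adaptors 1 rose, STIP1, which passes clients from HSP70 to HSP90, by 1.07 (SE 0.0553, limma adjusted p = 0.0411). A dimmer STIP1 probe set was also called, with a change of 0.88 (limma adjusted p = 0.0333). Among 5 measured HSP70 family genes outside the members 2 rose. HSPA13, a microsomal family member also called STCH, rose by 1.04 (SE 0.0531, limma adjusted p = 0.0411) in its brightest probe set. A dimmer HSPA13 probe set stood only 0.46 higher and was not called (limma adjusted p = 0.0605). HSPA5, the HSP70 of the endoplasmic reticulum, rose by 0.65 (SE 0.0326, limma adjusted p = 0.0408). HSPA14, a ribosome-associated member, stood 0.75 higher with a limma adjusted p of 0.0624. Neither of the 2 measured heat shock transcription factor genes passed.

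**Figure D4:**
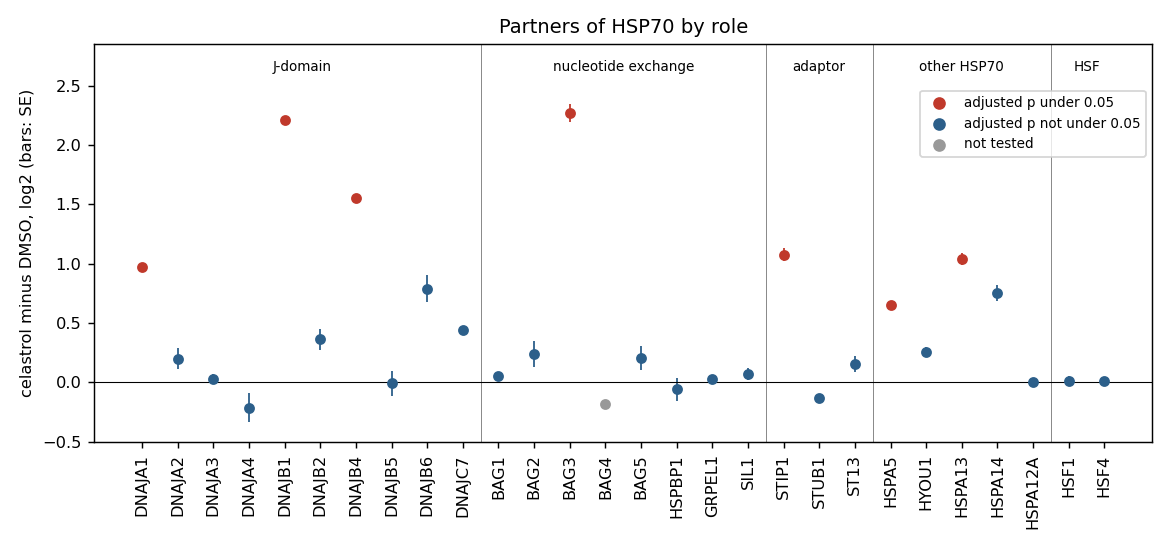
The vertical axis is the change, celastrol minus DMSO in log2, with SE bars, for the 28 measured partner genes grouped by role. The genes called higher by their brightest probe set are DNAJA1, DNAJB1, DNAJB4, BAG3, STIP1, HSPA5 and HSPA13, from 0.65 to 2.27.

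The genes whose pattern over the 4 arrays was most like that of the probe set shared by HSPA1A and HSPA1B were CBR3, BAG3, DNAJB1, GDF15 and DDIT3, out of 8083 searched. Likeness was the Euclidean distance between deviations from each probe set's own mean, which ran from 1.09 for CBR3 to 1.46 for DDIT3. It follows mainly the size of the change, which was 2.41 in CBR3 and 2.05 in DDIT3.

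**Figure D5:**
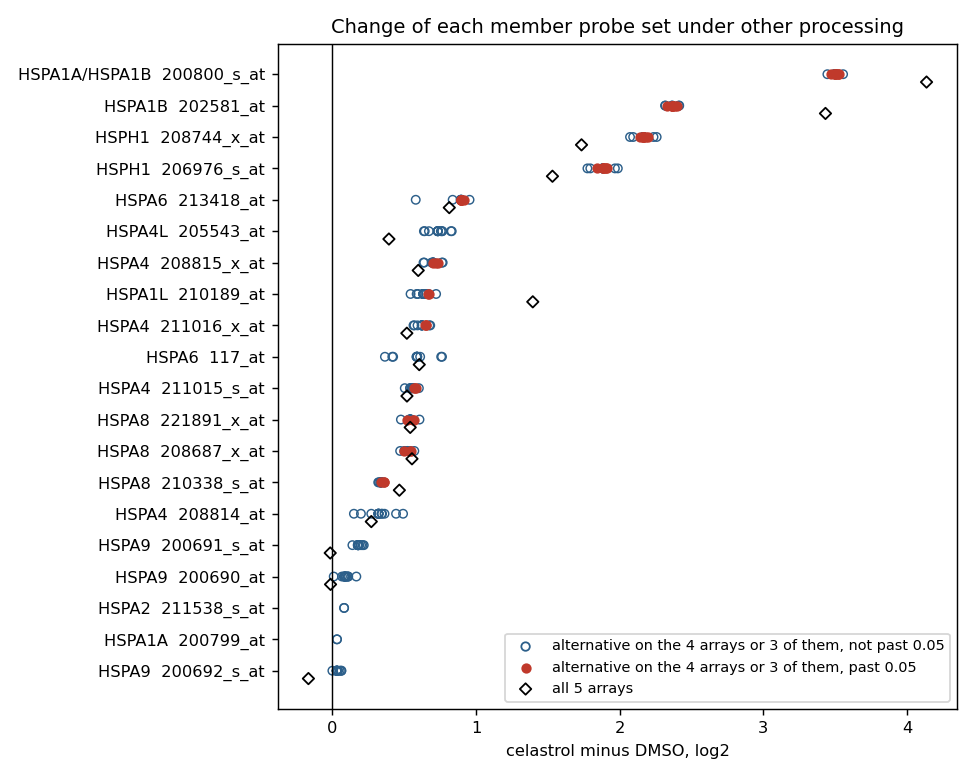
The horizontal axis is the change of each member probe set, celastrol minus DMSO in log2, with a circle for each other processing of the 4 arrays or of 3 of them, filled where the adjusted p was under 0.05, and a diamond for all 5 arrays. Circles stay on the side above 0 or at 0, and the diamonds of the 3 HSPA9 probe sets lie below 0.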

How the data were processed

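The members, gene lists and tests were chosen with earlier results of these data known. Affymetrix arrays were hybridised with biotinylated cRNA, per the labels' protocols. The deposited values are linear intensities, 1 for each probe set on each array. The authors used RMA, per the submitters' processing notes, and its version is not given in the sources used here. RMA includes a step that makes array distributions alike, though the deposited array medians still ran from 4.90 to 4.93 in log2. Changes of dim and of very bright probe sets can be shrunk on such arrays. The description of the DMSO samples names celastrol, and the titles and treatment protocol were followed. Symbols are those of the platform annotation.

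Values were used as log2(value + 1), with no further normalization. limma 3.58.1 in R 4.3.3 (lmFit, eBayes, two-sided) compared 2 celastrol arrays with DMSO replicates 1 and 2. Probe sets in the lowest 40% by mean over these 4 arrays were left out, which kept 13329, and Benjamini-Hochberg adjustment ran over those with a threshold of 0.05. The filter uses these 4 arrays so that DMSO replicate 3 lets no probe set in. An exact permutation test of 2 against 2 arrays cannot pass and was not used. A gene outside the members is represented by its brightest probe set over the 4 arrays among those naming it alone. Text names every member, each partner gene past the threshold, the 2 of smallest p among the other partners and the 5 genes of most similar pattern. The fit was also run on simulated data with known changes, with an outcome that is not given here. The deposited values were identical for 17.1% to 19.3% of probe sets between pairs of the 4 arrays, and 2 members had tied values within a group. Alternatives covered filters, normalization, the pseudocount, variance models, a replicate block and leaving out arrays. Promoter windows came from RefSeq and were aligned with Biopython 1.88.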

Additional observations from a re-analysis of the deposited data

Results flagged for a closer look

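DMSO replicate 3, which enters no comparison, held 2 member probe sets more than 2-fold above the higher of the other DMSO arrays. The probe set of HSPA1A alone read 7.51 there against 4.08 and 4.19, and HSPH1 208744_x_at read 10.61 against 9.22 and 9.41. Of all probe sets, 7.13% were as far above on that array and 9.51% as far below, where 3 members lay: the shared HSPA1A and HSPA1B probe set, HSPA1B and HSPA1L.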

How the results depend on the processing

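The alternatives below were chosen with earlier results known, and use the 4 arrays unless named otherwise. The 121 called probe sets, 5 called members and 7 called partners became 0, 0 and 0 with all 5 arrays, 2, 0 and 1 with no filter, and 32, 2 and 4 with the lowest 20% left out. Called probe sets numbered 389 with quantile normalization, 306 with median centring and 328 with cyclic loess, and called members 11, 11 and 12; the cause was not tested. The log2(value + 16) scale, trend and robust variance and a filter on the mean of 5 arrays gave 119 to 141 probe sets and 4 to 6 members. Leaving out 1 array left 1 array in a group and 1 residual degree of freedom, and the calls lost then are described above. With the replicate number as a block the counts were 0, 0 and 0. Under an unadjusted p of 0.05 in limma this block fit had 2099 of 13329 probe sets and 15 of 18 members. On all 5 arrays these were 424 and 12, and with no filter 2932 of 22215 probe sets and 14 of 20 members. The labels do not say whether the numbers pair the arrays. Over all probe sets, the differences between replicates 1 and 2 of the 2 groups correlated at r = -0.0197, which cannot decide it. With all 5 arrays the changes of HSPA9 reversed to -0.013 in 200690_at, -0.015 in 200691_s_at and -0.17 in 200692_s_at; no other alternative turned the sign of a tested member. The share of calls that were higher was 55.4% and stayed between 50% and 59.7% wherever calls were made.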
